A study of Mus musculus with 24 samples.

Results

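The transcripts of mouse embryonic fibroblasts (MEFs), matrix-forming cells grown from embryos, were sequenced after treatment with torin1 or with MK-8722. Torin1 is an ATP-competitive inhibitor of the kinase MTOR. MK-8722 is a small molecule that activates AMP-activated protein kinase (AMPK). The comparison takes all genes in the 4 wild-type (WT) torin1 libraries against the 4 WT MK-8722 libraries, which are 8 of the 24 libraries of the series. No agent other than the drug is given in the labels for either group, and the DMSO (vehicle) libraries of the same cells are quoted as a reference level alone, with no test. The remaining 12 libraries came from MEFs labelled as AMPK knockout (AMPK KO), a double knockout of Prkaa1 and Prkaa2. WT cells stood at passages 12 to 15, with 1 library of each passage in each group, and AMPK KO cells at passages 16 to 19. The replicates of a genotype differ in passage, but the labels do not say that they are separately derived lines, so p-values measure the spread between these libraries, and fewer cells of a kind cannot be told apart from less RNA per cell. The labels carry neither dose nor treatment time, so a difference between the drugs is a difference between these 2 treatments and not between matched strengths of 2 kinase responses.

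MTOR, in its complex MTORC1, couples amino acids and growth factors to protein, lipid and nucleotide synthesis, and restrains autophagy and lysosome formation. It is known to raise translation of the transcription factor ATF4 and processing of the SREBP factors, and to hold the factors TFEB and TFE3 in the cytoplasm. AMPK senses low cellular energy, restrains MTORC1 through TSC2 and RPTOR, and is known to phosphorylate FNIP1 and the CRTC coactivators of CREB. Both treatments therefore bear on the same lysosomal and anabolic programmes, and the comparison shows where their transcript levels part.

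The total estimated count was between 26900240 and 33571668 per library in these 8 libraries. Of 9 tested fibroblast markers, Vim stood at 3180.1 to 5017 CPM (normalised counts scaled to library size) and Fn1 at 3219 to 6542 CPM, while Thy1 reached at most 2.19 CPM and Pdgfra at most 6.21 CPM. No leukocyte or adipocyte marker on the lists had enough counts to be tested, and the summed leukocyte markers reached at most 0.635 CPM. The first principal component, with 72.7% of the variance, separated the drugs, and the second, with 10.3%, set the passage 12 library of each drug opposite its passage 13 library. The MK-8722 library at passage 12 (replicate 2) stood apart in amino acid, sterol and Txnip transcripts. Values with and without it are given where it matters.

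Between the drugs, 14115 genes were tested. Higher with torin1 were 3538 genes, which is 25.1% of those tested, and lower with torin1 were 3072, which is 21.8%. The call needed both a fold change of 1.2 or more and a Benjamini-Hochberg adjusted p below 0.05 in edgeR's quasi-likelihood test. At least 2-fold higher were 817 genes and at least 2-fold lower 331. Of the calls, 53.5% were higher with torin1, and 64.2% when libraries were scaled by their total count alone. Gene programmes were compared with these background shares and with the median over the tested genes, a log2 fold change of 0.022.

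**Figure D1:**
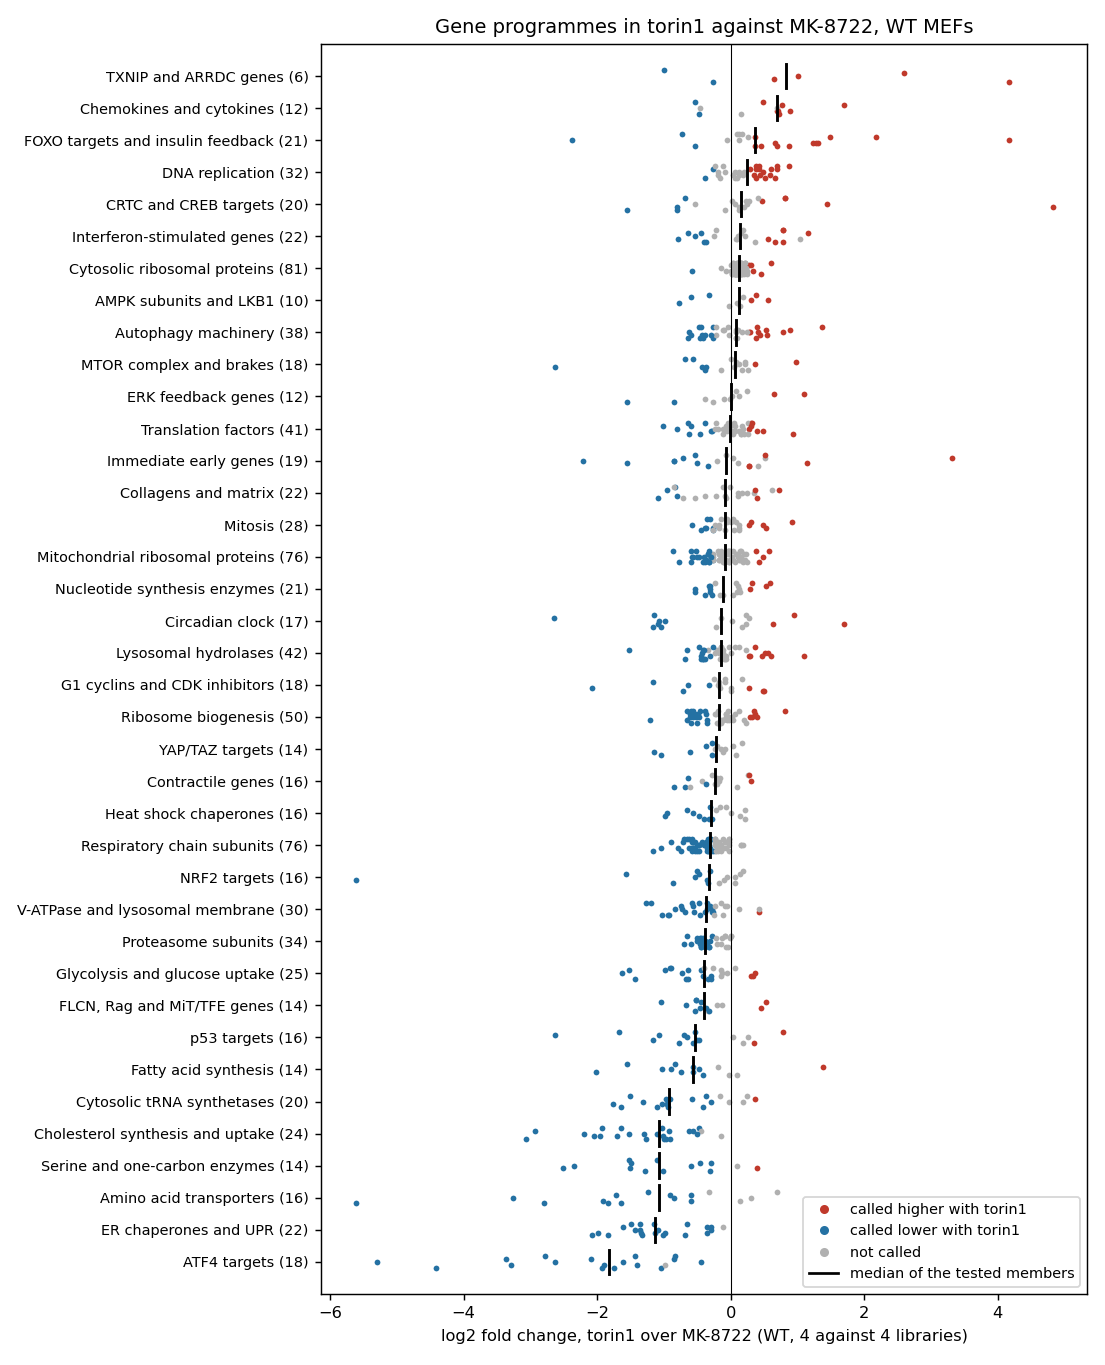
Log2 fold change of torin1 over MK-8722 (x axis) for each tested member of 38 gene programmes (y axis, number of tested members in brackets) in WT MEFs, with colour for the call and a black bar for the median. The medians ran from -1.83 for ATF4 targets to 0.83 for the TXNIP and ARRDC genes, and single members such as Slc7a11 at -5.61 and Pde4b at 4.82 lay far outside the range of most members.

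The amino acid stress programme driven by ATF4 was lower with torin1 than with MK-8722. Of 18 tested ATF4 targets, 17 were lower and 0 higher, with a median log2 fold change of -1.83. Summed over the list, the torin1 libraries held 611 to 703 CPM, the MK-8722 libraries 1669.9 to 2814 CPM and the DMSO libraries 1909.9 to 2911 CPM. Atf4 itself, whose translation rises under amino acid shortage, was at 121 to 146 CPM with torin1 and 397 to 541 CPM with MK-8722 (log2 fold change -1.75, SE 0.0976). Trib3 (chr2:152337422-152344032, minus strand, GRCm38), a pseudokinase that is a classical ATF4 target, was at 1.64, 2.04, 1.3 and 1.59 CPM with torin1 and at 61.4, 110.4, 47.3 and 42.9 CPM with MK-8722. The groups were far apart, at a log2 fold change of -5.30 (SE 0.348, adjusted p = 1.3e-06), and the DMSO libraries, at 59.4 to 108 CPM, overlapped the MK-8722 libraries. Stc2, a secreted glycoprotein, was at 0.274 to 0.581 CPM against 5.65 to 13.0 CPM (log2 fold change -4.42). Chac1, which degrades glutathione, was at 4.65, 4.20, 4.14 and 5.42 CPM with torin1 and at 46.8, 61.1, 35.4 and 38.5 CPM with MK-8722 (log2 fold change -3.29, SE 0.177, adjusted p = 5.6e-07). Ddit4 and Sesn2, inhibitors of MTORC1, fell by 3.36 and 2.63 on the log2 scale relative to MK-8722. Ddit4 with MK-8722, at 26.1 to 31.8 CPM, lay below the DMSO range of 46.4 to 62.5 CPM, whereas Sesn2, at 48.7 to 75.3 CPM, overlapped the DMSO range of 72.7 to 97.8 CPM. Vldlr was the 1 tested target not called, at 13.3 to 35.6 against 29.6 to 93.0 CPM (adjusted p = 0.054). With passage as a block it was called too, and all 18 tested targets were lower. Without the MK-8722 library at passage 12, the list still had 17 lower and 0 higher.

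Amino acid carriers and enzymes moved the same way. Of 16 tested transporters, 12 were lower and 0 higher, with a median of -1.08. Slc7a11 (chr3:49892526-50443614, minus strand), the cystine and glutamate exchanger, was at 0.140, 0.396, 0.198 and 0.337 CPM with torin1, from 4 to 13 reads a library, and at 10.9, 27.4, 7.88 and 7.93 CPM with MK-8722, from 209 to 782 reads. Its log2 fold change was -5.61 (SE 0.553, adjusted p = 1.4e-05), and -5.02 without the MK-8722 library at passage 12, in which it was highest. Slc7a3, a carrier of cationic amino acids, was at 1.58 to 2.55 CPM against 13.0 to 36.6 CPM, and Slc7a5, the leucine carrier of the LAT1 complex, at 134 to 150.3 CPM against 351 to 681 CPM. Slc6a9, a glycine transporter, was lower as well (log2 fold change -2.79), as was Cth, which makes cysteine (-2.78). Of 14 tested genes for serine and one-carbon metabolism, 12 were lower and 1 higher, with a median of -1.07. Mthfd2, the mitochondrial folate enzyme, was at 38.4, 38.3, 39.4 and 42.3 CPM with torin1 and at 239, 304, 192 and 179 CPM with MK-8722 (log2 fold change -2.51, SE 0.149, adjusted p = 8.1e-07). Psph, the last enzyme of serine synthesis, fell by 2.35 on the log2 scale. Of 20 tested cytosolic tRNA synthetases, 15 were lower and 1 higher. Cars and Aars, which charge cysteine and alanine tRNAs, were lower by log2 fold changes of -1.76 and -1.64, and Qars, for glutamine, was higher (0.37). The transcripts that were lower with torin1 are shown by library in the plot that opens with Slc7a11.

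The promoters of Slc7a11 and Chac1 are printed because both genes are among the 15 largest falls and hold the C/EBP-ATF response element (CARE), the sequence that ATF4 and its partners are known to bind. The stretches lie just upstream of the gene start on the strand of the gene, from the RefSeq promoter table of GRCm38.p6, and capitals mark each match to TGATGNAA on either strand. Slc7a11 is at chr3:50443615-50443863, minus strand, with 2 matches, and Chac1 at chr2:119350992-119351228, plus strand, with 1.
Slc7a11: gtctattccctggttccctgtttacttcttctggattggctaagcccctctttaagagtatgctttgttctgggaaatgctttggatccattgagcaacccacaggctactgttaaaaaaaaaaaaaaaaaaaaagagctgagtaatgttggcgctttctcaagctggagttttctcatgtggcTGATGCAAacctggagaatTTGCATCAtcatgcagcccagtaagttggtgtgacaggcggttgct
Chac1: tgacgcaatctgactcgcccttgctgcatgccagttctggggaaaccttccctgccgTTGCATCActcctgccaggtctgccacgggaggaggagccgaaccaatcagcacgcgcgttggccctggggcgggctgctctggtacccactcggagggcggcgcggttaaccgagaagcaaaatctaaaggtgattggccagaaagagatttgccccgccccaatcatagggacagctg
In the 250 bases upstream of each of the 32851 RefSeq starts, 3.45% held the CARE letters. Among the lists, it was present for 6 of 19 ATF4 targets with a promoter in the table, 2 of 13 amino acid transporters, 1 of 11 serine and one-carbon genes and 3 of 13 tRNA synthetases. The matches are a description of the letters and were not related to binding.

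**Figure D2:**
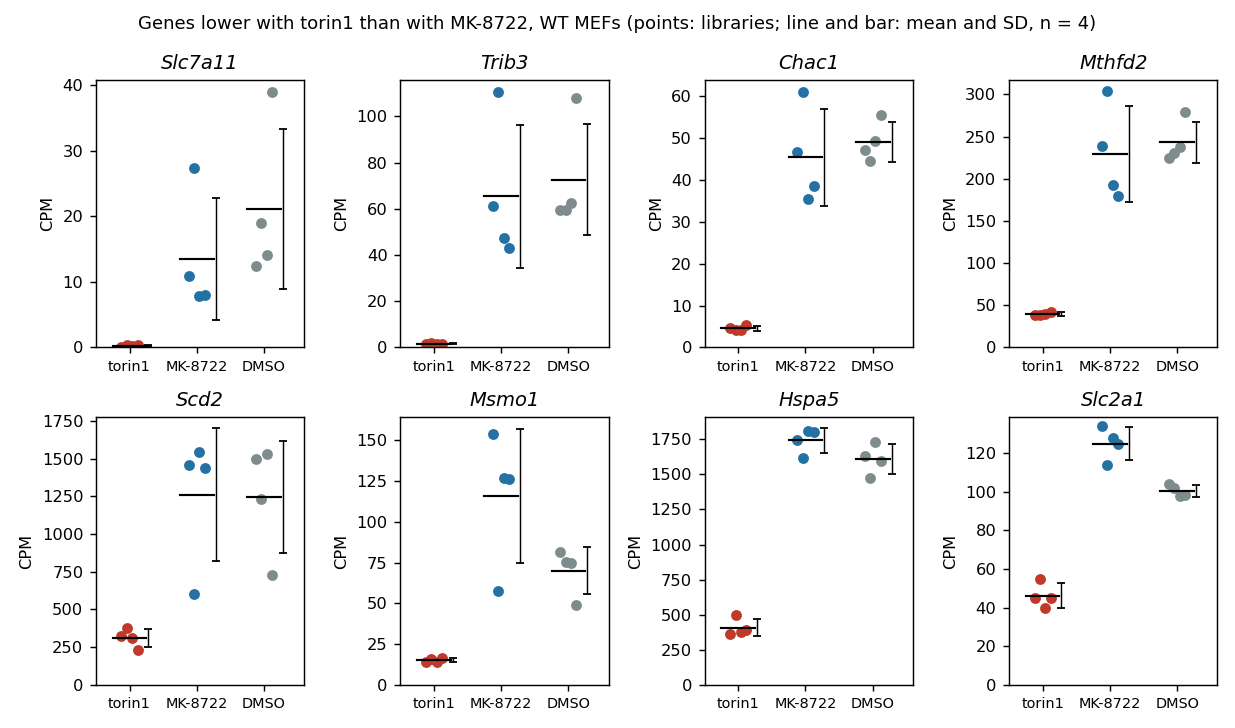
Normalised CPM (y axis) of 8 genes that were lower with torin1 than with MK-8722 in WT MEFs, with 1 point per library and the mean and SD of 4 libraries. The torin1 libraries lay below every MK-8722 library in each panel, and the MK-8722 library at passage 12 was the highest for Slc7a11 at 27.4 CPM and the lowest for Scd2 at 603 CPM.

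Sterol and fatty acid genes were lower with torin1. Of 24 tested genes for cholesterol synthesis and uptake, 22 were lower and 0 higher, with a median of -1.07. The summed list was at 816 to 964 CPM with torin1, 1320.2 to 2947 CPM with MK-8722 and 1284 to 2054 CPM in the DMSO libraries. Msmo1, a sterol demethylase, was at 14.2, 15.6, 14.1 and 16.6 CPM against 154, 57.8, 127 and 126 CPM (log2 fold change -2.93). The second MK-8722 value, at passage 12, was the low one, and the DMSO library at passage 12 was also the lowest of its group, at 49.1 CPM. MK-8722 was above DMSO at that passage too, and at the other passages it was above the whole DMSO range of 49.1 to 81.3 CPM. Hmgcs1, an enzyme of the early steps, fell by 2.04 on the log2 scale. Srebf2, the factor that drives the sterol genes, was lower (log2 fold change -1.0, SE 0.149), whereas Srebf1 was not called, at 122 to 137 against 106 to 128 CPM (adjusted p = 0.20). Lrp8, a lipoprotein receptor, and Lipg, an endothelial-type lipase, were lower by log2 fold changes of -2.54 and -3.15. Of 14 tested genes for fatty acid synthesis, 10 were lower and 1 higher. Scd2, a desaturase, was at 325, 375, 310.1 and 232 CPM against 1456, 603, 1546 and 1440.3 CPM (log2 fold change -2.01), Elovl6, an elongase, was lower (-1.55), and Acacb, the mitochondrial acetyl-CoA carboxylase, was higher (1.38). Without the MK-8722 library at passage 12, the sterol list had 23 lower and a median of -1.26.

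The Hmgcs1 promoter is printed because it was the 1 of 16 sterol promoters in the table that held the sterol regulatory element (SRE) TCACNCCAC, the sequence known to be bound by SREBP factors. It lies at chr13:119690101-119690350, plus strand, with the match in capitals.
Hmgcs1: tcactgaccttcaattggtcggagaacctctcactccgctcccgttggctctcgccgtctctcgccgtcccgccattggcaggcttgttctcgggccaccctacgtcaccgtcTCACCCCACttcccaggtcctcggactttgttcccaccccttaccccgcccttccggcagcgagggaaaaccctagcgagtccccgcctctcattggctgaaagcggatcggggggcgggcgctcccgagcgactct
The same letters were in 1.05% of all upstream windows.

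Chaperones of the endoplasmic reticulum (ER) formed the second most lowered programme by median. Of 22 tested ER chaperones and unfolded protein response genes, 21 were lower and 0 higher, with a median of -1.14. Their sum was 5205 to 6043 CPM with torin1 and 10992 to 11744 CPM with MK-8722, and the DMSO libraries, at 10550.4 to 11574 CPM, overlapped the MK-8722 range. Hspa5 (chr2:34771970-34777547, plus strand), the central ER chaperone BiP, was at 363 to 500.4 CPM with torin1 and at 1618 to 1809.9 CPM with MK-8722 (log2 fold change -2.08, SE 0.0969, adjusted p = 4.2e-07). Sdf2l1, a cofactor of BiP, fell by 1.98 on the log2 scale, and Creld2, an ER protein induced with it, was at 33.3 to 41.3 CPM with torin1 and at least 92.7 CPM in each MK-8722 library (log2 fold change -1.43). Xbp1, a transcription factor of this response, was lower too (-1.34). Cytosolic heat shock chaperones moved less, with 9 of 16 lower, 0 higher (6 and 2 under scaling by total count) and a median of -0.29, and Hspa1a and Hspa1b at log2 fold changes of -0.98 and -0.95. Hspa1a and Hspa1b are near-identical copies, so the split of reads between them is uncertain.

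The Creld2 promoter is printed for the ER stress response element (ERSE), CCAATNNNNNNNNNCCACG on either strand, which the factor ATF6 is known to bind with NF-Y. It lies at chr15:88819396-88819645, plus strand. The match, in capitals, is on the opposite strand.
Creld2: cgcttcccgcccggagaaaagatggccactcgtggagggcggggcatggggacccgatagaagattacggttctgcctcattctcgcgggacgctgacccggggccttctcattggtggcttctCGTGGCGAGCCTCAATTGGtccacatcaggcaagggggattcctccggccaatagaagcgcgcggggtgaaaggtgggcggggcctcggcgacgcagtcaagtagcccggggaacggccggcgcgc
These letters were in 0.113% of all upstream windows and in those of 8 of 19 members of the ER list, namely Calr, Canx, Creld2, Dnajc3, Hsp90b1, Hspa5, Pdia6 and Syvn1.

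Genes for glucose use, protein breakdown and respiration were lower by smaller amounts. Of 25 tested genes for glycolysis and glucose uptake, 15 were lower and 3 higher, and 17 and 1 without the MK-8722 library at passage 12. Vegfa, a hypoxia-responsive growth factor kept on this list, Hk2, a hexokinase, and Slc2a1, the glucose carrier GLUT1, fell by 1.63, 1.52 and 1.43 on the log2 scale. Slc2a1 was at 39.8 to 55.0 CPM with torin1 and 114 to 134 CPM with MK-8722. Hk1, the constitutive hexokinase, was higher (0.36). Of 34 tested proteasome subunits, 23 were lower and 0 higher (median -0.38), with Psmd7 and Psmb3 at -0.70 and -0.66. Of 76 tested respiratory chain subunits, 43 were lower and 0 higher (median -0.31), and 29 lower and 1 higher when a trend with gene length was removed. Cycs, cytochrome c, and Uqcrq, a subunit of complex III, fell by 1.16 and 1.05 on the log2 scale. Of 16 tested NRF2 targets, 9 were lower and 0 higher. Slc7a11 is also on that list, Hmox1, heme oxygenase, fell by 1.57 on the log2 scale, and Nqo1, a defining NRF2 target, was at 2.69 to 4.27 against 2.38 to 4.13 CPM (adjusted p = 0.82).

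Transcripts that were higher with torin1 included the arrestin-domain genes that report on glucose and energy supply. Txnip (chr3:96557957-96561883, plus strand), which restrains glucose uptake, was at 122, 109, 126 and 95.5 CPM with torin1 and at 2.84, 13.7, 4.22 and 4.45 CPM with MK-8722. The log2 fold change was 4.17 (SE 0.369, adjusted p = 7e-06), and 4.88 without the MK-8722 library at passage 12, the high one. The DMSO libraries, at 15.0 to 28.8 CPM, lay between the drugs without touching either range. Its relative Arrdc4 was at 11.1, 8.77, 10.8 and 9.85 CPM against 1.16, 2.28, 1.88 and 1.44 CPM (log2 fold change 2.6, SE 0.179), again with the DMSO libraries between, at 2.63 to 5.90 CPM. Arrdc3 and Arrdc2 were higher by log2 fold changes of 1.01 and 0.65. Mlx and Mlxip, which encode the pair of factors known to drive Txnip, were lower (-1.0 and -0.27). The fold of Mlxip fell under the minimum for a call with total-count scaling (-0.19), a minimum of 10 counts or the length trend removed (-0.25), and a length offset or torin1 replicate 1 left out (-0.23). An antisense gene, Gm15441, overlaps Txnip and had 9 to 20 reads per library with torin1 and 0 to 2 with MK-8722, and was not tested.

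The Txnip promoter is printed for the carbohydrate response element (ChoRE), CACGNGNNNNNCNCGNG on either strand, known to be bound by MLX with its partners. It lies at chr3:96557707-96557956, plus strand, with the match in capitals.
Txnip: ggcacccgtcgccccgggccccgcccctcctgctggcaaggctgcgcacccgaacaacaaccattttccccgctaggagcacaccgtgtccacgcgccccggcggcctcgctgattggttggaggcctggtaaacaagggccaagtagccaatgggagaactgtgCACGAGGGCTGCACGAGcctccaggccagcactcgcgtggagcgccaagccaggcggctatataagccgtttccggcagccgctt
The letters were in 0.280% of all upstream windows, and Txnip was the 1 of 6 genes on its list that held them.

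Targets of the FOXO factors and genes of insulin feedback were also higher. Of 21 tested, 12 were higher and 3 lower, with a median of 0.37. The log2 fold changes on this list ran from -2.38 to 4.17, the upper end being the value of Txnip above. Their sum was 1486 to 1552 CPM with torin1, 942 to 1028 CPM with MK-8722 and 946 to 1045 CPM in the DMSO libraries. Pdk4, which switches off pyruvate oxidation, was at 8.21, 9.57, 9.07 and 8.93 CPM against 2.50, 1.65, 1.92 and 1.95 CPM (log2 fold change 2.17, SE 0.128, adjusted p = 8e-07). Foxo3 itself was at 137, 142, 135 and 133 CPM against 57.3, 60.6, 53.4 and 55.7 CPM (log2 fold change 1.28), and the DMSO libraries, at 53.4 to 62.7 CPM, overlapped the MK-8722 range. Ccng2, a cyclin induced by FOXO factors, was higher by 1.31 and Irs2, the insulin receptor substrate, by 0.66 on the log2 scale. Pik3r1, a subunit of phosphoinositide 3-kinase, and Bcl6, a repressor, were lower (-0.73 and -0.54), and the call on Bcl6 was lost when MK-8722 replicate 1, MK-8722 replicate 4 or torin1 replicate 3 was left out (-0.46, -0.48 and -0.5).

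Pde4b and Klf2, genes responsive to CREB and to fluid flow, were among the 15 largest rises. Pde4b (chr4:102087543-102607259, plus strand), a cyclic AMP phosphodiesterase, was at 25.3, 23.6, 27.3 and 23 CPM with torin1 and at 0.933, 0.841, 0.980 and 0.800 CPM with MK-8722, a log2 fold change of 4.82 (SE 0.104, adjusted p = 2.8e-09). The DMSO libraries held 9.17 to 12.9 CPM, so torin1 lay above them and MK-8722 below. Klf2, a transcription factor of quiescence, showed the same order of means, at 38.5, 45.8, 32.7 and 22.9 CPM, then 21 to 25.9 CPM in DMSO, which overlapped torin1, and 3.32, 4.77, 3.05 and 3.01 CPM with MK-8722 (log2 fold change 3.32, SE 0.228). The CRTC and CREB targets, Pde4b among them, were mixed, with 5 of 20 higher and 4 lower. These shares were near those of all tested genes, 25.1% higher and 21.8% lower. Under scaling by total count, 8 were higher. Ppargc1a, a coactivator of mitochondrial genes, was higher (1.44) and Fosb and Nr4a1, which respond quickly to stimulation, were lower (-1.55 and -0.81). Immediate early genes were mixed too, with 5 of 19 higher (26.3%) and 8 lower (42.1%). The number higher was 2 with DESeq2 size factors and 3 without torin1 replicate 2 or 4 or MK-8722 replicate 2, 3 or 4.

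**Figure D3:**
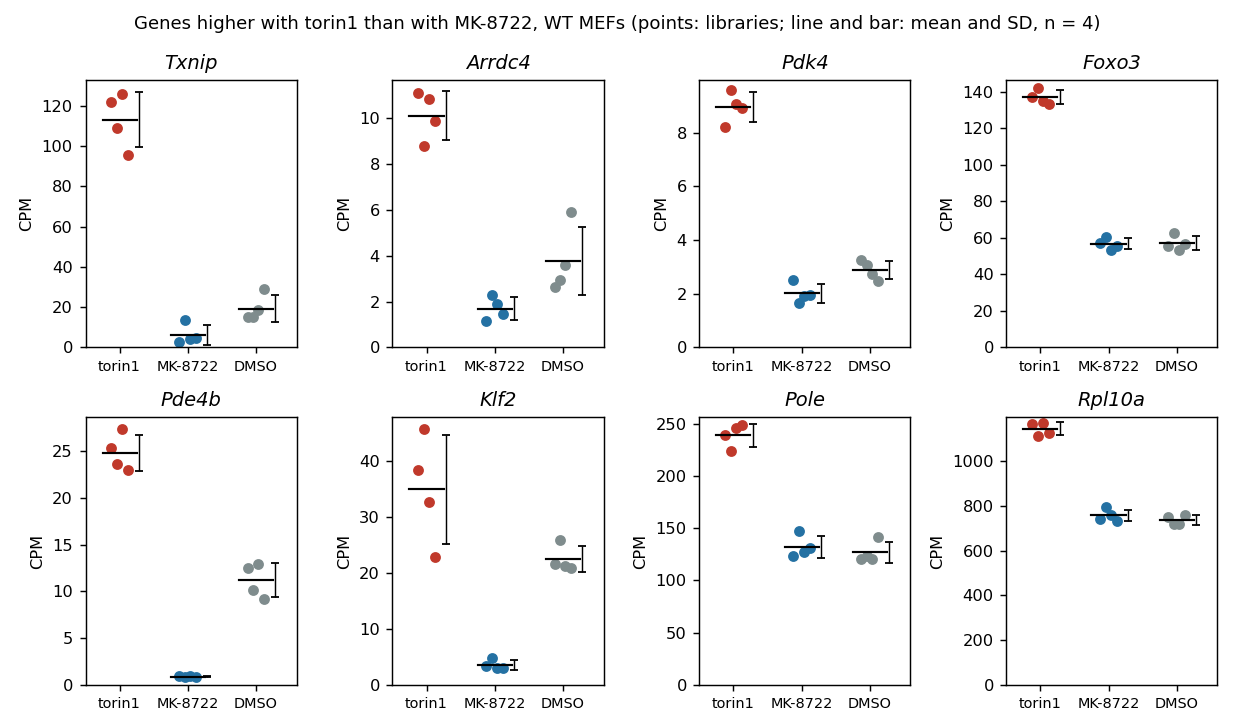
Normalised CPM (y axis) of 8 genes that were higher with torin1 than with MK-8722 in WT MEFs, with 1 point per library and the mean and SD of 4 libraries. The torin1 and MK-8722 libraries did not overlap in any panel, and DMSO values lay between the drugs for Txnip, Arrdc4 and Pde4b and within or near the MK-8722 range for Foxo3, Pole and Rpl10a.

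Translation and DNA replication genes shifted by small amounts. Of 81 tested cytosolic ribosomal proteins, 5 were higher and 1 lower, shares below the backgrounds for single genes, with a median of 0.13. The number higher was 20 under scaling by total count and 37 when a trend with gene length was removed. The sum was 67362 to 69700.2 CPM with torin1 and 61998 to 63752 CPM with MK-8722, without overlap and with no test. Rpl10a and Rpl3 were higher (0.61 and 0.45) and Rps27l, a p53-responsive variant, was lower (-0.58). Among 41 translation factors, 7 were higher and 9 lower, and 11 and 7 under scaling by total count. Pdcd4, an inhibitor of initiation that MTORC1 signalling removes, and Eif4b, a helicase cofactor, were higher (0.93 and 0.49), and Eif4ebp1 and Eif4e, the repressor and the cap-binding factor it blocks, were lower (-1.01 and -0.80). Of 50 genes for ribosome biogenesis, 19 were lower and 6 higher, or 3 higher without MK-8722 replicate 3 or replicate 4, with Polr3g (-1.21) and Nolc1 (-0.65) lowest and Polr1c (0.82) and Npm1 (0.39) highest. Of 76 mitochondrial ribosomal proteins, 23 were lower and 4 higher, and 15 and 10 under scaling by total count, so that this split turned on the scaling. Of 32 DNA replication genes, 16 were higher and 2 lower, with a median of 0.24. Pole and Pold1, catalytic subunits of the replicative polymerases, were higher (0.88 and 0.70), and Fen1 and Tk1 were lower (-0.39 and -0.26). The call on Tk1 was lost under 4 other settings and without any of 5 single libraries, at -0.26 to -0.19.

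Lysosomal genes, known targets of TFEB and TFE3 in the CLEAR network, were higher with MK-8722 for the membrane and divided for the lumen. Of 30 tested genes for the V-ATPase and lysosomal membrane, 21 were lower with torin1 and 1 higher, with a median of -0.37. The sum was 2880.3 to 3028 CPM with torin1, 3929 to 4302 CPM with MK-8722 and 2586 to 2727 CPM in the DMSO libraries. Atp6v0b, a proton channel subunit, was at 55.3, 49.0, 53 and 61.9 CPM against 129.8, 128, 124 and 127 CPM (log2 fold change -1.20, SE 0.0645, adjusted p = 5.6e-07), and DMSO, at 47.5 to 51.7 CPM, overlapped torin1. Ostm1, a subunit of the lysosomal chloride exchanger, fell by 1.27 and Atp6v1h by 1.03 on the log2 scale. Lamp1, the abundant membrane glycoprotein, differed less (-0.28). Hydrolases were divided, with 14 of 42 lower (33.3%) and 8 higher (19.0%) and a median of -0.14. Over all tested genes, 21.8% were lower and 25.1% higher. Neu1 (chr17:34931253-34935953, plus strand), the lysosomal sialidase, was at 22.3, 21.8, 23.5 and 22.5 CPM with torin1 and at 71.1, 54.2, 67.3 and 69.3 CPM with MK-8722 (log2 fold change -1.52, SE 0.0822), and DMSO at 18.4 to 20.4 CPM lay just below torin1. Hexa, a subunit of hexosaminidase, was at 55.4, 54.3, 57.3 and 61.3 CPM against 92.5, 99.4, 88.9 and 89.6 CPM (log2 fold change -0.68, SE 0.0541, adjusted p = 3.8e-06), both above the DMSO range of 32.0 to 37.9 CPM. Ctsa, a protective carboxypeptidase, was at 162 to 175 against 185 to 217 CPM. Its fold was under the minimum for a call (log2 fold change -0.24, adjusted p = 0.0021), and it was called with no filter on low counts (-0.26), with a length offset (-0.29) and without MK-8722 replicate 3 (-0.28) or torin1 replicate 4 (-0.27). Ctsf and Idua were higher with torin1 (1.09 and 0.61). Gpnmb, a glycoprotein induced by MiT/TFE factors, was at 34.9, 23.6, 41.2 and 56.9 CPM against 36.7, 52.6, 35.7 and 43.4 CPM, overlapping groups that both lay above the DMSO range of 2.84 to 5.63 CPM.

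The nutrient-sensing machinery on the lysosome followed the membrane genes. Of 14 tested FLCN, Rag and MiT/TFE genes, 9 were lower with torin1 and 2 higher, with a median of -0.40. Flcn (chr11:59791408-59810016, minus strand) was at 47.4, 43.2, 47.9 and 49.5 CPM with torin1 and at 71.7, 67.6, 69.3 and 66.8 CPM with MK-8722 (log2 fold change -0.54, SE 0.0520, adjusted p = 1.2e-05), with DMSO lower at 27.8 to 32.9 CPM. Its partners Fnip1 and Fnip2 were lower by log2 fold changes of -0.46 and -0.67. Lamtor3, a scaffold of the Rag GTPases, was at 23.4, 24.5, 25 and 25.1 CPM against 53.5, 48.4, 50.2 and 51.5 CPM (log2 fold change -1.04), and here the DMSO libraries, at 32.9 to 35.5 CPM, lay between the drugs. Of the factors themselves, Tfeb and Mitf were called higher with torin1, against the direction of most of the list, and Tfe3 was not called. Tfeb was at 8.32 to 10.9 against 6.38 to 7.71 CPM (log2 fold change 0.45, adjusted p = 0.0049) and Mitf at 3.23 to 5.55 against 2.62 to 3.36 CPM (0.53, adjusted p = 0.021), a call lost with a length offset (0.29) and without torin1 replicate 3 (0.37) or MK-8722 replicate 4 (0.46). Tfe3 was at 68.0 to 69.2 against 79.2 to 80.8 CPM, under the fold needed for a call (-0.21). Autophagy genes had no common direction, with 11 of 38 higher (28.9%) and 12 lower (31.6%), beside 25.1% and 21.8% of all tested genes. Calcoco1, an autophagy receptor, was at 141, 138, 142 and 136 CPM against 51.0, 58.3, 54.9 and 54.3 CPM (log2 fold change 1.37, SE 0.0490), Atg14, of the initiating lipid kinase complex, was higher (0.89), and the processing proteases Atg4d and Atg4a were lower (-0.64 and -0.62). Sqstm1, the receptor p62, was at 393 to 453 against 441 to 659.6 CPM (adjusted p = 0.14).

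**Figure D4:**
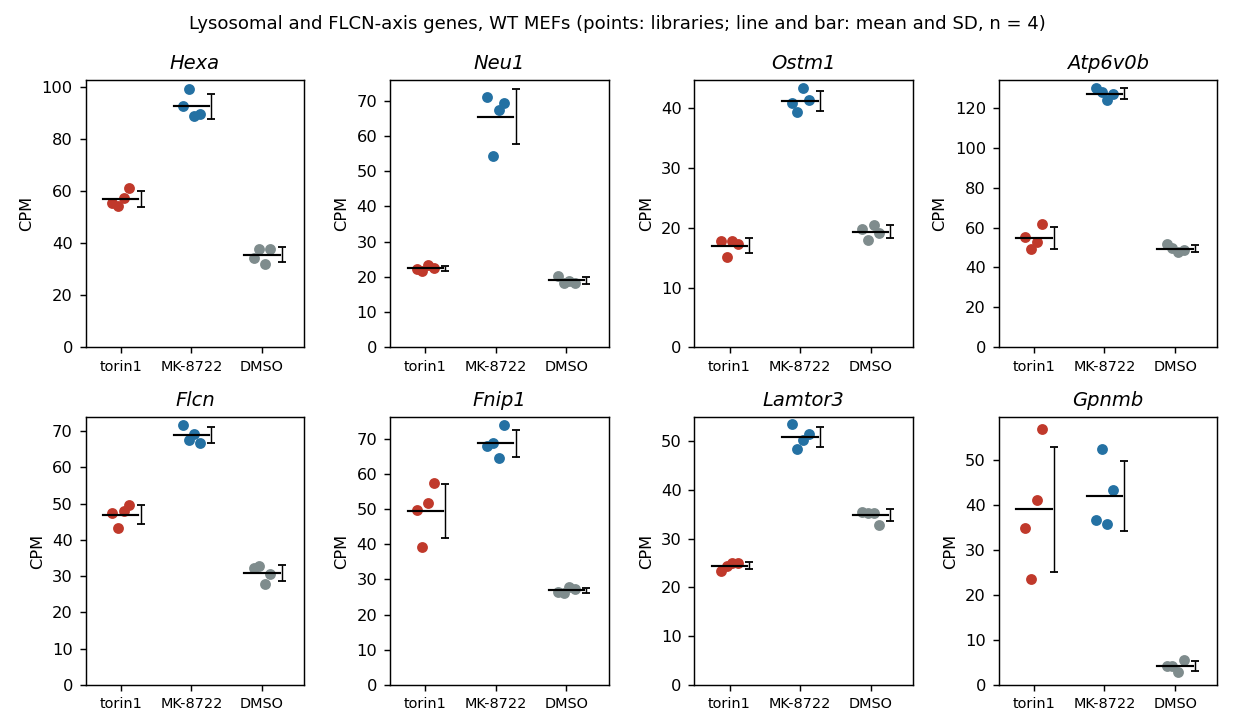
Normalised CPM (y axis) of 8 lysosomal and FLCN-axis genes in WT MEFs, with 1 point per library and the mean and SD of 4 libraries. For every gene but Gpnmb the MK-8722 libraries lay above the torin1 libraries, and both drugs lay above DMSO for Hexa, Neu1, Flcn, Fnip1 and Gpnmb.

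Among the kinases themselves, Prkaa1, the AMPK catalytic subunit, was at 68.5 to 79.5 against 76.3 to 81.3 CPM (adjusted p = 0.70). Prkaa2 was lower with torin1 (log2 fold change -0.77), and Prkab1 and Prkag1 were higher (0.56 and 0.38). Of 10 tested AMPK and LKB1 genes, 3 were higher and 3 lower (30% each), beside 25.1% and 21.8% of all tested genes. Of 18 MTOR complex genes and inhibitors, 2 were higher and 6 lower, and 5 were higher under scaling by total count. Castor1, the arginine sensor, and Rictor, of MTORC2, were higher (0.98 and 0.37), and Castor2 was lower (-0.68). Mitosis and G1 genes were called at shares not far from those of all tested genes, 25.1% higher and 21.8% lower. Of 28 mitosis genes, 5 were higher (17.9%) and 8 lower (28.6%), with Ndc80 (0.92) and Ccnb1 (-0.58) at the ends. The counts were 3 higher without MK-8722 replicate 1, and 5 lower under scaling by total count. Of 18 G1 cyclins and CDK inhibitors, 3 were higher (16.7%) and 5 lower (27.8%), and 2 and 7 without the MK-8722 library at passage 12. Ccnd2, a D-type cyclin, was at 92.3, 82.7, 87.1 and 91.9 CPM against 346, 432, 375 and 355 CPM (log2 fold change -2.08, SE 0.0739, adjusted p = 1.8e-07). Cdkn1a, the inhibitor p21, fell by 1.17 and Gadd45a, a stress gene, by 1.68 on the log2 scale. They belong with the 11 of 16 p53 targets that were lower, a list that shares Sesn2 with the ATF4 targets, while 2, Trp53 and Fas, were higher (0.35 and 0.79). The call on Fas was lost under the length offset, the replicate block and without any of 6 single libraries. Myc was at 167 to 240 against 137 to 228 CPM (adjusted p = 0.29), and without the MK-8722 library at passage 12, in which it was highest, its log2 fold change was 0.44 (adjusted p = 0.0098). Of 21 nucleotide synthesis genes, 4 were higher and 8 lower, and 4 and 3 under scaling by total count, led by Adss and Paics (0.59 and 0.53) and by Impdh1 and G6pdx (-0.54 and -0.53).

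With no block in the fit, the ERK feedback, matrix, contractile and interferon lists were called at shares near or below those of all tested genes. Over all tested genes, 25.1% were called higher and 21.8% lower. With passage as a block, 3652 genes were called higher and 3176 lower, and some of these lists had more calls, as given below. Of 14 tested YAP/TAZ targets, 6 were lower and 0 higher, with the matricellular genes Ccn2 and Ccn1 at log2 fold changes of -1.15 and -1.04. Both were higher with MK-8722 than in the DMSO libraries by range, Ccn1 at 480.5 to 781 against 304 to 397 CPM. Of 16 contractile genes, 2 were higher (12.5%) and 4 lower (25%), and 2 and 6 with passage as a block. The number lower was 7 without torin1 replicate 2 or MK-8722 replicate 2, and the number higher was 0 without torin1 replicate 4 and 1 without torin1 replicate 2 or MK-8722 replicate 3 or 4. Acta2, smooth muscle actin, was at 628, 1118, 647 and 911 CPM against 1885, 1249, 1061 and 1204 CPM, overlapping groups (log2 fold change -0.69, adjusted p = 0.016). Of 22 matrix genes, 3 were higher (13.6%) and 4 lower (18.2%). These counts were 5 and 8 with passage as a block, the number lower was 9 without torin1 replicate 2 and 7 without MK-8722 replicate 2, and the number higher was 1 without MK-8722 replicate 3 and 5 without torin1 replicate 4. Fn1, fibronectin, was higher (0.72) and Col8a1 and Col4a1, collagens of basement membranes, were lower (-1.09 and -0.95). Of 12 ERK feedback genes, 2 were higher and 2 lower (16.7% each), with 1 higher without torin1 replicate 2 or MK-8722 replicate 3 and 4 lower without torin1 replicate 4, and with Spry4 at -1.55 and Etv1 at 1.09. Of 17 clock genes, 3 were higher and 7 lower, and 5 and 7 without the MK-8722 library at passage 12. Ciart and Cry1 were lower (-2.64 and -1.17), and Cry2 and Per3 were higher (0.64 and 0.95). Of 12 tested chemokines and adhesion genes, 7 were higher and 2 lower, with Cxcl1 at 1.16 to 1.89 against 0.421 to 0.523 CPM (log2 fold change 1.70). Of 22 interferon-stimulated genes, 6 were higher and 6 lower (27.3% each), and 3 were lower without torin1 replicate 3. With passage as a block, 8 of them were higher and 6 lower. Fibroblast markers did not move as 1 group, with 3 of 9 higher and 1 lower. Pdgfra, a growth factor receptor, was at 3.08, 2.62, 4.50 and 6.21 CPM against 0.485, 0.280, 0.452 and 0.128 CPM (log2 fold change 3.64), Vim was higher (0.55) and Col1a2 was lower, with overlapping groups (-0.81). Of the markers of other cell types, the epithelial list had 2 of 3 tested higher, at a sum of 3 to 5.18 against 1.54 to 2.54 CPM, the endothelial list had Kdr lower (-1.44) and the skeletal muscle list Des higher (0.98). Their part in any result was not tested.

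Among the 15 largest rises, several genes belonged to none of the lists. Cyp1b1, a monooxygenase of the aryl hydrocarbon response, was at 33.0, 41.0, 32.7 and 16.6 CPM against 6.35, 1.65, 2.86 and 3.04 CPM (log2 fold change 3.17). Itga2, a collagen receptor, and Ypel1 were both at a log2 fold change of 2.99, and Coq8a, required for coenzyme Q synthesis, at 2.69. Mturn (2.53), Exosc6, an RNA exosome subunit (2.37), Frmd5 (2.37), Traf1, an adaptor of tumour necrosis factor receptors (2.34), Synpo, an actin-binding protein (2.21), and Tgfbi, a matrix protein (2.03), completed them. Exosc6 lies wholly within the span of Aars on the same strand, so the split of reads between them is uncertain. Per library, Exosc6 had 39 to 308 reads and Aars, which was lower with torin1, 6625 to 26509. Among the 15 largest falls outside the lists were Tfrc, the transferrin receptor that takes up iron, at 13.9, 22.4, 15.4 and 18.6 CPM against 105, 67.4, 88.9 and 116 CPM (log2 fold change -2.41, SE 0.184), and Cdsn, a desmosomal protein (-2.58).

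The same drugs were compared in the libraries labelled AMPK KO, to ask where the difference between torin1 and MK-8722 itself differed with genotype. The 16 libraries were fitted together, and CPM here are scaled over those 16. Prkaa1 was at 66.9 to 81.9 CPM in the libraries labelled AMPK KO and at 73.1 to 85.1 CPM in WT, and Prkaa2 at 2.67 to 5.67 against 3.71 to 9.08 CPM. A count over a whole gene takes in reads outside a deleted part, so it does not check the genotype, which rests on the labels. Of 15626 genes, the difference was higher in WT for 2127 (13.6%) and lower for 1534 (9.82%). The direction of this split turned on the scaling, since 58.1% of calls were higher in WT here, 47.5% with DESeq2 size factors, 42.8% with total counts alone and 42.7% with a length offset. Genotype, cell line and passage range cannot be told apart.

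Several lists differed by genotype mostly in 1 direction, the lysosomal lists among them. For the V-ATPase and lysosomal membrane genes, 27 of 30 had a lower value in WT and 0 a higher one, and for hydrolases 27 of 42 and 0. Under DESeq2 size factors, total counts and the length offset, the lower counts were 27 to 28 and 27 to 29. Of 28 mitosis genes, 20 were lower in WT and 0 higher (23 to 25 lower under those scalings), and of 22 ER chaperones 16 were lower and 2 higher, with a median of -0.59. Of 14 serine and one-carbon genes, 10 were higher in WT and 0 lower, with a median of 0.55 (7 to 8 higher under those scalings). Flcn differed between torin1 and MK-8722 by -0.52 (SE 0.0797) in WT and by 0.81 (SE 0.0816) in AMPK KO, a difference of -1.33 (SE 0.114, adjusted p = 7.1e-07). Torin1 levels of Flcn were alike by range, 46.1 to 52.6 and 42.6 to 61.8 CPM, whereas MK-8722 levels were 70.0 to 74.5 CPM in WT and 27.8 to 30.4 CPM in AMPK KO. Fnip1, Hexa and Ctsa behaved in the same way, with differences of -1.69, -1.19 and -0.98. Gpnmb was the gene with the largest negative difference, at -4.55 (SE 0.511). It was at 37.2 to 54.7 CPM with MK-8722 in WT and 0.396 to 0.922 CPM in AMPK KO, against 25.2 to 60.4 and 7.54 to 21.7 CPM with torin1. Gask1b, a Golgi protein, differed by -2.58 and Slc7a3 by -3.50. In all 8 libraries labelled AMPK KO, Slc7a3 was at or below 1.51 CPM and Gask1b at 1.32 to 6.37 CPM. Gask1b in WT was at 118 to 371 CPM, so its level differed between the lines under both drugs.

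In the other direction, Pde4b differed by 4.19 (SE 0.154, adjusted p = 2.2e-11), with log2 fold changes of 4.83 in WT and 0.64 in AMPK KO. In AMPK KO it was at 23.4 to 24.2 CPM with MK-8722, against 0.838 to 1.02 CPM in WT. Klf2 differed by 3.35 (SE 0.279), from 3.33 in WT to -0.02 in AMPK KO, and Afap1l2, an actin filament adaptor, by 3.43. Afap1l2 was at 31.0 to 51.2 CPM in AMPK KO and 0.436 to 8.61 CPM in WT, a gap present under both drugs. Txnip kept its direction in AMPK KO, at a log2 fold change of 2.6 (SE 0.351) against 4.19 in WT, a difference of 1.59 (adjusted p = 0.026). That call was lost with the replicate block (adjusted p = 0.063), with DESeq2 (0.058) and without any of 8 single libraries, the smallest value being 1.02 without AMPK KO MK-8722 replicate 2. Atf4 was lower with torin1 in both genotypes, by -1.73 in WT and -2.09 in AMPK KO, a difference of 0.36 (adjusted p = 0.041). That call was lost under 6 other settings, among them DESeq2 size factors (adjusted p = 0.076), and without any of 11 single libraries, at 0.23 to 0.37. Irs2 was higher with torin1 in both (0.67 and 1.15). Tfeb differed by 0.85 and Tfe3 by 0.31, and the Tfe3 value was under the fold needed for a call in 2 other settings and without any of 11 single libraries, at 0.23 to 0.26. The differences for Mitf, Prkaa1, Myc, Srebf1 and Srebf2 were not called, at 0.58 (SE 0.242), -0.12 (SE 0.0732), -0.11 (SE 0.211), -0.24 (SE 0.0793) and -0.38 (SE 0.187). With passage as a block, Srebf2 (-0.38, adjusted p = 0.0036) and Mitf (0.56, adjusted p = 0.046) were called. Without WT MK-8722 replicate 2 Srebf2 was called at -0.58, and without WT torin1 replicate 2 Mitf was called at 0.70. Srebf1 was called under 5 other settings and without any of 13 single libraries, at -0.37 to -0.26.

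**Figure D5:**
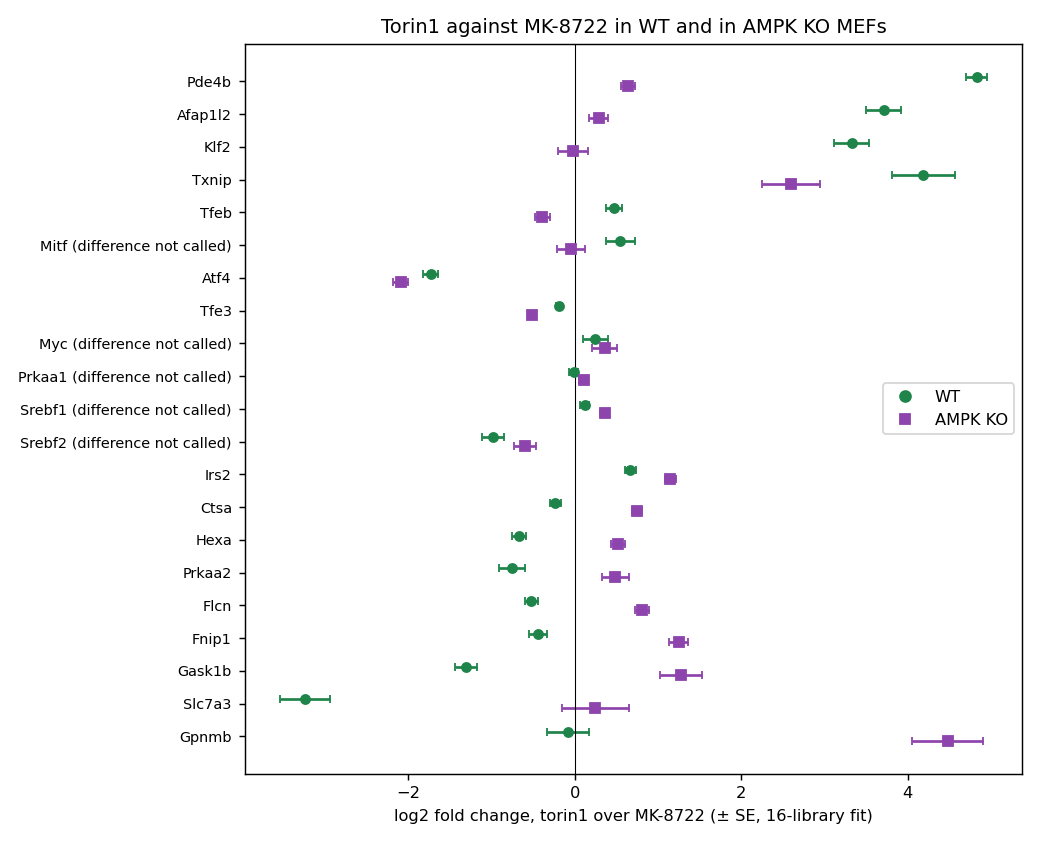
Log2 fold change of torin1 over MK-8722 with its standard error (x axis) for 21 genes (y axis) in WT (circles) and in AMPK KO (squares), from 1 fit to 16 libraries, ordered by the difference. Pde4b, Afap1l2 and Klf2 were at 4.83, 3.71 and 3.33 in WT against 0.64, 0.29 and -0.02 in AMPK KO, Flcn, Fnip1 and Hexa lay on opposite sides of 0, and Atf4, Txnip and Irs2 lay on the same side in both genotypes.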

How the data were processed

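Per the labels and the study's methods, poly(A) libraries of WT and AMPK KO MEFs were sequenced in pairs of short reads, and the authors aligned them with STAR to GRCm38 in the nf-core/rnaseq workflow and quantified them with Salmon. Handling of molecular identifiers was among the options given, so how far counts approximate molecules was not tested. The gene-level table deposited by the authors contains unnormalized estimated counts, of which 39.4% were not whole, and the deposited transcript tables hold TPM, estimated counts and effective lengths. Summing transcripts gave the gene-level values within 5.8e-11. The study's methods mention batch removal, but all libraries carry 1 batch label and none was removed.

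Estimated counts were rounded to whole numbers, filterByExpr chose the genes to test, TMM set the scaling, and the 8 libraries were fitted with edgeR 4.0.16 (quasi-likelihood, two-sided, R 4.3.3), with Benjamini-Hochberg adjustment over 14115 genes. The difference between genotypes was an interaction in 16 libraries over 15626 genes. Calls needed a 1.2-fold change or more together with an adjusted p below 0.05. Printed CPM use TMM factors over the 12 WT libraries. The common biological coefficient of variation was 0.093. Precision is given as SE or as the range of libraries. Positions are from GENCODE on GRCm38, which held 14098 of the genes tested, and cover the whole gene. Genes named by position are protein-coding.

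Named genes were the 15 largest called rises and falls with a mean of at least 5 CPM and no overlap of the groups, leaving out gene models, Rik clones and pseudogenes, up to 2 called members of each list in each direction with a mean of at least 1 CPM, 16 fixed genes, and the 3 largest differences between genotypes in each direction. Other members were named for their role after their values were seen. The 38 lists, their members and this rule were chosen with earlier results of these data known. Replicate numbers did not pair the libraries, but passages did, with correlations of deviations between 0.17 and 0.471 for the 4 passages and each library closest to its own passage. Alternatives were other scalings, filters, thresholds, a length offset, a length trend, blocks, all 24 libraries, the DESeq2 test (version 1.42.0) and fits without single libraries. The fits were tested on simulated data, with 50 genes changed at each fold and the same coefficient of variation for every gene, which is simpler than these data. The WT comparison recovered 52% of 1.3-fold, 80% of 1.5-fold and 98% of 2-fold changes. The difference between genotypes recovered 16%, 58% and 76%, so small changes may go uncalled. Motifs were searched as written, on both strands. Some genes of the lists are counted in them but not reported here.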

Additional observations from a re-analysis of the deposited data

Results flagged for a closer look

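In 24 of 304 groups of 4 libraries examined for the named genes, 1 library stood far from the other 3, where chance gives about 1 in 20. In 17 of these the library was WT MK-8722 replicate 2, at passage 12.
It was the highest of its group for Cdkn1a (58.1 against 26.7 to 30.0 CPM), Ciart (8.48 against 4.48 to 5.04 CPM), Cth (68.3 against 24.4 to 26.5 CPM), Hk2 (118 against 100.3 to 101 CPM), Myc (228 against 137 to 139.7 CPM) and Paics (356 against 339.8 to 342 CPM). The same held for Polr1c (81.6 against 66.7 to 68.4 CPM), Prkab1 (47.2 against 39.0 to 40.1 CPM), Psph (104 against 53.4 to 60.4 CPM), Sesn2 (75.3 against 48.7 to 52.8 CPM), Slc7a11 (27.4 against 7.88 to 10.9 CPM), Slc7a3 (36.6 against 13.0 to 15.7 CPM), Trp53 (329.7 against 259 to 265 CPM), Txnip (13.7 against 2.84 to 4.45 CPM) and Uqcrq (94.9 against 81.5 to 82.5 CPM). It was the lowest for Elovl6 (34.4 against 58.9 to 63.1 CPM) and Scd2 (603 against 1440.3 to 1546 CPM).
MK-8722 replicate 1 was the highest for Ctsf (2.39 against 1.47 to 1.55 CPM), Idua (8.14 against 7.50 to 7.57 CPM) and Myl9 (47.5 against 22.3 to 26.5 CPM).
Torin1 replicate 4 was the highest for Irs2 (162 against 149 to 150.5 CPM), Myc (239.8 against 167 to 170.2 CPM) and Pik3r1 (18.6 against 17.8 to 17.9 CPM).
Torin1 replicate 2 was the lowest for Mrpl9 (76.6 against 85.3 to 86.3 CPM).
Torin1 replicate 4 was also at passage 12, and the part of passage was not tested.

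The difference between torin1 and MK-8722 itself differed between WT and AMPK KO, by an interaction term in edgeR, for the following genes (WT minus AMPK KO, log2). Higher in WT were Pde4b (4.19), Afap1l2 (3.43), Klf2 (3.35), Tfeb (0.85), Tfe3 (0.31), Atf4 (0.36), Txnip (1.59). Lower in WT were Gpnmb (-4.55), Slc7a3 (-3.50), Gask1b (-2.58), Hexa (-1.19), Ctsa (-0.98), Flcn (-1.33), Fnip1 (-1.69), Prkaa2 (-1.24), Irs2 (-0.48). The calls on Tfe3, Atf4 and Txnip were lost under 2, 6 and 2 other settings and without any of 11, 11 and 8 single libraries. Each group had 4 libraries, and Afap1l2, Gask1b, Gpnmb, Klf2, Pde4b and Slc7a3 were picked as the largest.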

How the results depend on the processing

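Of 154 named genes, 138 kept their direction and their side of the call in WT under every scaling, filter, block, tool and left-out library tried, apart from other thresholds. Genes called in WT numbered 6610, and 3066 (1910 higher, 1156 lower) at a fold change of at least 1.5. Leaving out single libraries gave 6275 to 6738 (3282 to 3537 higher, 2990 to 3218 lower). Replicate numbers did not pair the libraries, and no library correlated best with its own number. With the replicate block the count was 6383, and with passage as a block 6828. Neither block moved the count of all calls by over 1.5 times. With passage as a block the matrix list went from 3 higher and 4 lower to 5 and 8. Under that block Srebf2 and Mitf became called between genotypes, and no other call on the 154 named genes changed. Vldlr, named outside that rule, became called in WT, so that all 18 tested ATF4 targets were lower. No filter on low counts gave 7025. Prkaa1 changed sign under total-count scaling (0.05), with the length trend removed (0.00) and without torin1 replicate 2 (-0.05 to 0.02 over single libraries left out). Gpnmb changed sign without torin1 replicate 2 (0.09) or MK-8722 replicate 2 (0.02), with a range of -0.33 to 0.09. Neither was called. Between genotypes the count was 3661, and 1451 (777 higher, 674 lower) in a test against a fold change of 1.2, 1358 (773 higher, 585 lower) at 1.5-fold, and 1247 higher with a length offset. Without single libraries it was 3115 to 3819, with 1297 to 2089 higher and 1438 to 2186 lower. It was 3043 with the replicate block and 4277 with passage as a block. Myc changed sign between genotypes without WT MK-8722 replicate 2 (range -0.32 to 0.04). The cause of each was not tested. Few reads limit the precision of Slc7a11, with 4 to 13 per torin1 library and an SE of 0.553.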

Other observations

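Some host genes of small nucleolar RNAs were written down after their values were seen. Of these 16 genes 15 were tested, and 9 were higher with torin1 and 1 lower, with a median log2 fold change of 0.36. Over all tested genes, 25.1% were higher and 21.8% lower. Because the genes were picked with their values known, the count does not describe such genes in general. Zfas1 was at 117 to 159.8 CPM with torin1 and 30.5 to 43.6 CPM with MK-8722 (log2 fold change 2.02, SE 0.121), and the DMSO libraries held 28.1 to 37.4 CPM. Snhg1 was higher by 1.41 and Epb41l4aos by 1.33 on the log2 scale, Gas5 was higher (0.36), and Snhg4 was lower (-0.45). No test was made of the group.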
